A study of Mus musculus with 16 samples.

Results

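The transcriptome of unstressed neurons under tianeptine (TIA) was compared between 4 CONTROL-TIA cultures (label numbers 5 to 8) and 4 CONTROL-VEH cultures (label numbers 1 to 4), which the labels identify among the 16 samples of the series. All were wild-type primary cortical neurons prepared at embryonic day 15 and plated at 1500000 cells per well. At 8 days in vitro the cultures received 10 µM TIA or vehicle (DMSO in the study's methods, called untreated in the labels), and 24 h later they went through a sham treatment in place of oxygen–glucose deprivation (OGD). RNA was taken at the same time as in the remaining 8 cultures, OGD-VEH and OGD-TIA, which had 3 h of OGD and 6 h of reoxygenation. The study calls the 4 cultures of a group biological replicates. Neither it nor the labels say whether they came from separate preparations, so the p-values measure the spread between these cultures.

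TIA is an atypical antidepressant with a tricyclic structure. It activates opioid receptors, above all the µ-opioid receptor, and it has been studied for its actions on glutamate transmission through AMPA receptors. It was long described as an enhancer of serotonin reuptake, the opposite of what selective serotonin reuptake inhibitors do. The comparison asks what a day of the drug did to neurons that were not deprived of oxygen and glucose, and how large an effect could have gone undetected.

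Expression was read as FPKM, fragments scaled by transcript length and by the number of mapped reads, estimated per isoform and summed per gene symbol. The 8 cultures were of like depth, by estimate between 20500000 and 26100000 reads. The estimate comes from values already scaled between cultures, so it mixes depth with that scaling. Its upper end exceeds the range of aligned reads that the study states. Neuronal genes were abundant in all of them. The summed level of 12 excitatory neuron markers ranged from 2258 to 2802 FPKM in CONTROL-VEH and from 2378 to 2665 FPKM in CONTROL-TIA. Glial transcripts were present too: 12 astrocyte and radial glia markers, led by *Fabp7*, *Vim* and *Aldoc*, summed to 2606–3097 FPKM with vehicle and 2448–2681 FPKM with TIA. Microglial and endothelial markers were close to 0. The 12 microglial markers summed to 2.79–5.93 FPKM in CONTROL-VEH and 2.70–5.27 FPKM in CONTROL-TIA, led by *Cd68* and *Aif1*, and *Cx3cr1* was listed at 0 in 7 of the 8 cultures. The 10 endothelial and mural markers summed to 2.02–5.20 FPKM with vehicle and 1.77–2.38 FPKM with TIA. In bulk RNA, fewer cells of a type and less RNA per cell cannot be told apart.

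The culture CONTROL-VEH 4 stood apart from the other 7. Its astrocyte gene *Gfap* was at 87.4 FPKM, against 6.95, 6.53 and 7.56 FPKM in the other vehicle cultures and 7.71, 5.09, 6.05 and 15.1 FPKM in CONTROL-TIA 5 to 8. Its 12 interneuron markers summed to 889 FPKM against 474–739 FPKM elsewhere, and its 8 fibroblast and meningeal markers to 91.9 FPKM against 173–232 FPKM. Over all genes its mean correlation with the other cultures of its group was 0.953, against 0.960 to 0.968 for the other 7 cultures. Several results below that rest on it are given with and without it.

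No gene was called between CONTROL-TIA and CONTROL-VEH. Of 16170 genes that averaged 0.5 FPKM or more, 0 (0%) reached an adjusted p of 0.05 in limma, with or without the requirement of a 2-fold difference, and the smallest adjusted p was 0.201. An unadjusted limma p under 0.05 was reached by 621 genes (3.84%), 292 of them (1.81%) higher and 329 (2.03%) lower with TIA. Where no gene differs, such a threshold passes a share of 0.05 on average. The values of the 2 groups did not overlap for 156 genes higher (0.965%) and 177 genes lower (1.09%) with TIA. For 210 of these 333 genes (2.06% of those tested) the difference was under 0.5 on the log2 scale. By chance alone, groups of 4 against 4 cultures would not overlap in a share of 0.0286 on average, both directions together. The median log2 difference over all genes was -0.01.

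**Figure D1:**
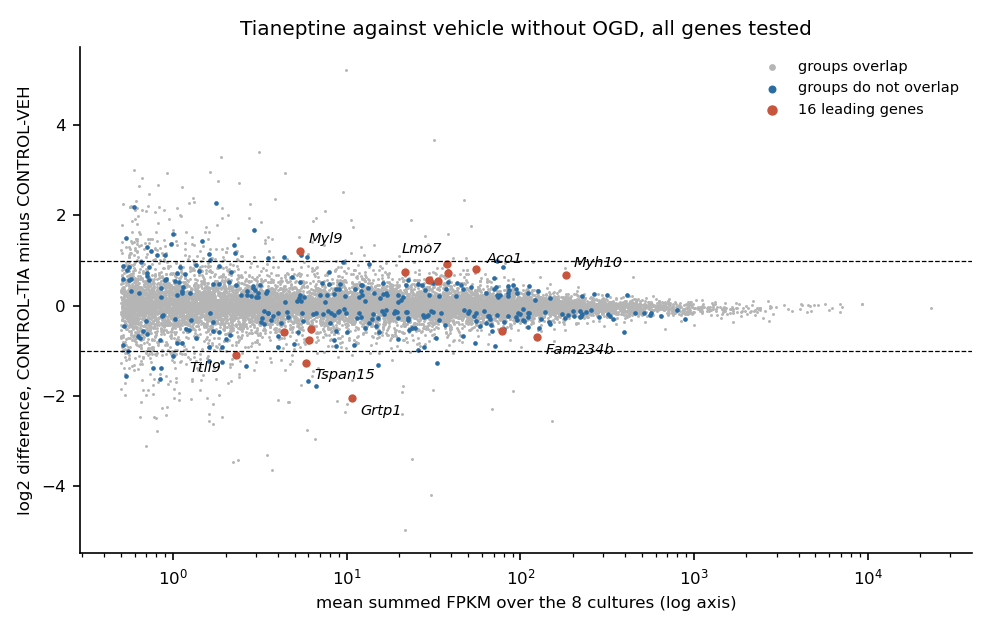
Log2 difference between CONTROL-TIA and CONTROL-VEH (y axis) against the mean summed FPKM over the 8 cultures (x axis, log scale) for 16170 genes. Genes whose 2 groups do not overlap are blue, the 16 leading genes are red, and dashed lines mark 2-fold. The cloud narrows around 0 with rising expression, and no gene passed the adjusted threshold.

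The size of effect that the 8 cultures could exclude depended on expression. The 95% limma interval of the difference lay within 2-fold for 12879 genes (79.6%) and within 1.5-fold for 56.7%. Among 3944 genes over 50 FPKM, 97.1% had an interval within 2-fold and 84.5% within 1.5-fold, and the median half-width of the interval corresponded to a factor of 1.19. The half-width was 1.25-fold for 5040 genes at 10 to 50 FPKM and 1.34-fold for 3920 genes at 2 to 10 FPKM. For the 3266 genes at 0.5 to 2 FPKM it was 1.67-fold, and only 49.1% had an interval within 2-fold. Conversely, the interval lay wholly beyond 1.5-fold for 28 genes, none of them over 50 FPKM, and wholly beyond 2-fold for 3 genes. These intervals are per gene and are not corrected for the number of genes.

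The smallest p belonged to *Grtp1* (chr8:13172022-13200620, GRCm38), a gene of the TBC domain family, whose members act on Rab GTPases. It measured 17.7, 20.4, 17.7 and 13.4 FPKM in CONTROL-VEH 1 to 4 and 4.49, 5.72, 3.74 and 2.81 FPKM in CONTROL-TIA 5 to 8. Every TIA culture was below every vehicle culture. The log2 difference was -2.05 ± 0.22 (SE), with a 95% interval from -2.56 to -1.54 and an adjusted limma p of 0.201. Without CONTROL-VEH 4 it was -2.17.

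The 8 protein-coding genes that were higher with the smallest p, and the 8 that were lower, were taken among genes that averaged 2 FPKM or more, with no overlap between the groups. Since lack of overlap was a condition, the exact permutation p of each is 0.0286, the smallest that 4 against 4 cultures can give, and it adds nothing. None of the 16 had an adjusted limma p under 0.201.

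Among the higher genes, *Myh10* (chr11:68691559-68816632), the heavy chain of non-muscle myosin IIB, had 151, 133, 152 and 122 FPKM with vehicle and 227, 208, 227 and 233 FPKM with TIA, a log2 difference of 0.68 ± 0.09 (SE). *Myl9*, a myosin regulatory light chain, went from 3.04, 2.32, 3.08 and 4.54 FPKM to 5.96, 8.80, 6.25 and 9.22 FPKM, a log2 difference of 1.21. With length weighting, described below, its interval included 0 (0.34, -0.12 to 0.80). *Lmo7*, a LIM domain protein of cell junctions, had means of 26.0 ± 5.2 and 49.6 ± 8.4 FPKM (SD, n = 4 each). In summed FPKM the lowest TIA culture of each was above the highest vehicle culture.

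*Rnaseh1*, the nuclease that cuts RNA in RNA–DNA hybrids, had 14.9, 18.8, 16.8 and 14.2 FPKM with vehicle against 23.7, 31.8, 26.5 and 26.7 FPKM with TIA. *Exosc2*, a subunit of the RNA exosome, had 21.2, 28.7, 31.1 and 28.4 FPKM against 38.0, 41.6, 40.8 and 39.3 FPKM. *Aco1*, the cytosolic aconitase that doubles as an iron sensor, ranged over 35.0–56.9 FPKM with vehicle and over 62.6–77.4 FPKM with TIA. The co-repressor scaffold *Sin3a* had a log2 difference of 0.73, and the liprin gene *Ppfibp1* of 0.57.

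Among the lower genes, *Aktip*, whose product belongs to a complex that links cargo to dynein, had 84.8, 91.4, 90.9 and 106 FPKM with vehicle and 61.5, 61.4, 61.8 and 68.8 FPKM with TIA. *Fam234b* had 174, 133, 144 and 169 FPKM against 95.4, 97.0, 82.8 and 106 FPKM. The tetraspanin *Tspan15*, a partner of the sheddase ADAM10, had a log2 difference of -1.26, and the tubulin ligase family gene *Ttll9* of -1.09. The centriole gene *Sclt1* (-0.75), the deubiquitinase *Otud7b* (-0.59) and *Tmem91* (-0.51) completed the set. Under the same conditions the genes with the largest differences added the zinc finger genes *Zfp551* (1.08) and *Zfp266* (0.99), *B230307C23Rik* (1.05), the calcium-activated cation channel *Trpm4* (0.96), the folate enzyme *Mthfs* (-1.78), the replication repair gene *Tonsl* (-1.32) and the TFIID subunit *Taf6* (-1.26).

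**Figure D2:**
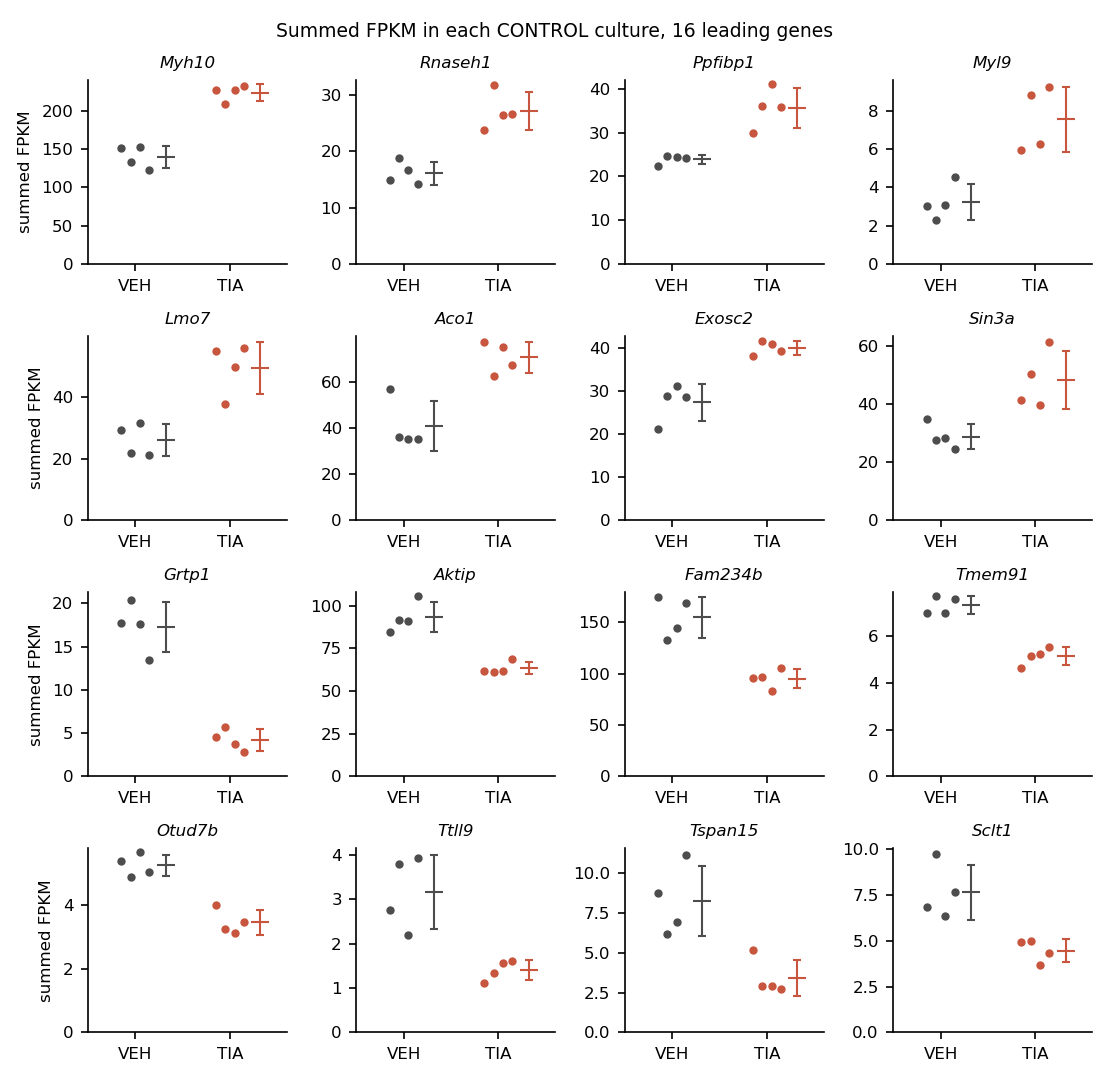
Summed FPKM (y axis, from 0) of 16 leading genes in each CONTROL-VEH culture (VEH, grey) and CONTROL-TIA culture (TIA, red). Each point is a culture and the bar beside it is the mean ± SD of 4 cultures. The groups do not overlap in any panel, which was a condition for choosing these genes. In the panel of *Grtp1* the TIA cultures lie between 2.81 and 5.72 FPKM and the vehicle cultures between 13.4 and 20.4 FPKM.

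Most of these differences lay in a single short isoform. In *Myh10*, with 10 isoforms and a longest transcript of 7791 bases, a non-coding isoform of 376 bases had a mean of 5.63 FPKM with vehicle and 98.0 FPKM with TIA, a difference of 92.3 FPKM against 84.1 FPKM for the whole gene. In *Grtp1*, an isoform of 379 bases annotated for nonsense-mediated decay went from 13.8 to 0.633 FPKM, and the gene as a whole from 17.3 to 4.19 FPKM. In *Aco1* a non-coding isoform of 410 bases had 4.95 and 37.3 FPKM. Over the 23 genes named above, 1 isoform made up more than 50% of the gene's difference in 20, that isoform was shorter than the gene's longest in all 23, and in 16 it was not annotated as protein-coding. A short isoform needs few reads for a high FPKM, so its estimate weighs heavily in a sum of FPKM.

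When each isoform was weighted by its length, which approximates a count of reads per gene on the FPKM scale, all 23 differences kept their sign and all 23 became smaller. *Myh10* fell to 0.08 (95% interval -0.03 to 0.20), *Aco1* to 0.10 (-0.04 to 0.25) and *Sin3a* to 0.11 (-0.01 to 0.23). *Rnaseh1* kept 0.31 (0.16 to 0.47) and *Exosc2* 0.24 (0.14 to 0.35). The 23 genes had been picked by their summed FPKM, which by itself favors smaller differences by another measure. Length weighting was chosen after the data were seen. By it *Grtp1* ranged from 13.3 to 15.2 FPKM with vehicle and from 7.26 to 7.99 FPKM with TIA, a log2 difference of -0.87 (-1.02 to -0.72), and it was the only gene of 16163 with an adjusted limma p under 0.05 (0.0104). With the order of the cultures as a replicate block added to that fit, its adjusted limma p was 0.157 and no gene had one under 0.05. Its groups stayed apart by both measures.

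**Figure D3:**
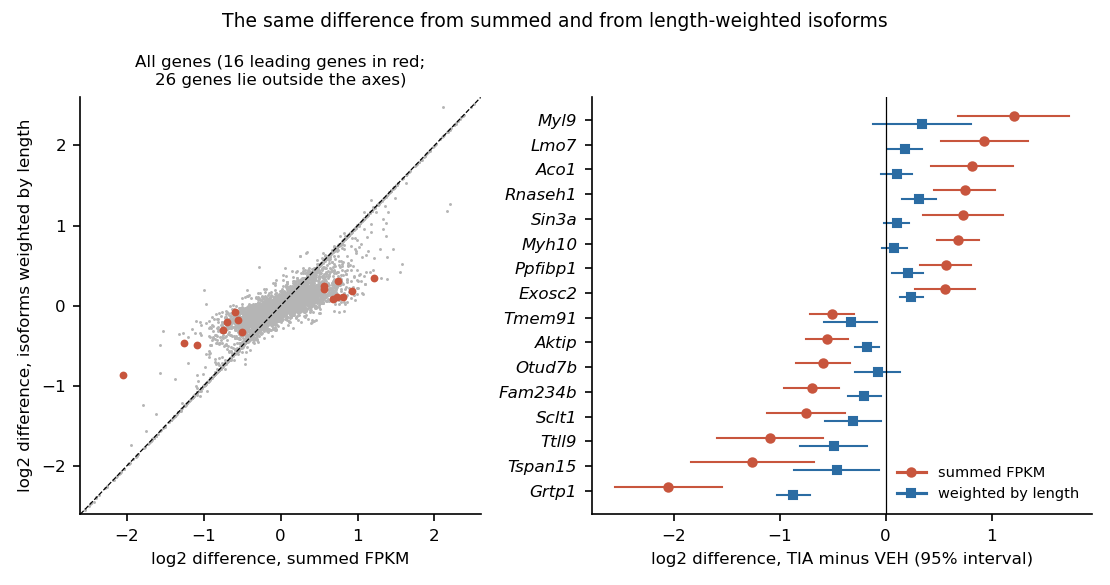
Left, log2 difference between CONTROL-TIA and CONTROL-VEH from length-weighted isoforms (y axis) against the same from summed FPKM (x axis) for all genes, with the line of equality. Right, both differences with 95% limma intervals for the 16 leading genes: every length-weighted value lies closer to 0, and the interval of *Grtp1* stays below 0 by either measure.

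The bound on a drug effect was tighter with length weighting. Limma shares variance across genes, so intervals also moved for genes with 1 isoform, whose values are the same by both measures. That of *Mcts2* went from 0.01 to 0.39 with summed FPKM and from 0.04 to 0.36 with length weighting. That of *Oprd1* was slightly wider, -0.605 to 0.533 and then -0.610 to 0.537. How much of the tightening this accounts for was not tested. The interval lay within 2-fold for 87.7% of genes and within 1.5-fold for 73.2%. Over 50 FPKM the shares were 99.2% and 96.4%, with a median half-width of 1.12-fold. At 10 to 50 FPKM, 97.9% of intervals lay within 2-fold. The number of genes with an unadjusted limma p under 0.05 was 429, of which 323 were also among the 621 found with summed FPKM. Genes with 1 isoform made up 144 of the 323. Their values are the same by both measures, but their limma p-values can differ for the reason given above. Among genes with more isoforms, 179 were shared between 476 with summed FPKM and 252 with length weighting.

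Of the 333 genes whose groups did not overlap in summed FPKM, 174 (52.3%) did not overlap after length weighting either, 84 higher and 90 lower. For 84 of the 174 this was given beforehand, since they have 1 isoform. Of the 249 such genes with more isoforms, 90 (36.1%) stayed apart and none turned to the opposite side. Among those over 10 FPKM, the 6 protein-coding genes with the smallest length-weighted p in each direction, also picked after seeing the data, were *Exosc2*, *Rnaseh1*, *Ppfibp1*, *Mcts2* (with 1 isoform), *Nup85* and *Slc4a1ap* for higher values and *Grtp1*, *Ten1*, *Crip2*, *Mtmr14*, *Aktip* and *Rexo2* for lower ones. Apart from *Grtp1* their length-weighted differences were 0.31 or less in size, and their adjusted limma p was above 0.99.

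Within this set the abundant LIM domain gene *Crip2* had 967, 1006, 1002 and 941 FPKM with vehicle and 908, 782, 778 and 752 FPKM with TIA. *Ten1*, a subunit of the CST complex that protects telomeres, had 64.7, 68.5, 79.0 and 76.5 FPKM against 59.3, 51.2, 56.2 and 54.5 FPKM. *Nup85*, a nuclear pore subunit, had 81.0, 92.6, 90.1 and 67.8 FPKM against 104, 108, 109 and 102 FPKM. The TIA group lay wholly below the vehicle group in the former pair and wholly above it in *Nup85*.

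Isoforms tested one at a time gave 5 calls of 52239 at an adjusted limma p of 0.05 and 2-fold, 4 higher and 1 lower with TIA. A non-coding isoform of *Uap1l1* of 399 bases was at 0, 0, 0 and 0.028 FPKM with vehicle and 18.7, 10.7, 19.6 and 19.0 FPKM with TIA. A non-coding isoform of *Gmip* of 411 bases went the other way, from 28.1, 14.04, 8.51 and 16.5 FPKM to at most 0.003 FPKM. The rest belonged to *Pacsin2*, *Myl9* and *Mlip*, at 387 to 640 bases, and were listed at 0.012 FPKM or less in every vehicle culture. For the whole gene, the length-weighted difference was 0.26 for *Uap1l1*, -0.02 for *Gmip* and 0.16 for *Pacsin2*. What lies behind these isoform values was not tested.

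Genes tied to the drug or to ischemia were taken from a list of 32 candidates, some of them genes that the study singled out on these samples, and 25 passed the expression filter. The 95% interval included 0 for all of them but *Htr6*, and it lay within 2-fold for 24 and within 1.5-fold for 17. Over all genes tested, 3.84% had an interval without 0, 79.6% had one within 2-fold and 56.7% within 1.5-fold. *Htr6* (chr4:139061108-139075570, GRCm38), a serotonin receptor that couples to cAMP synthesis, had 2.97, 3.15, 3.35 and 2.80 FPKM with vehicle and 3.68, 3.61, 3.48 and 4.16 FPKM with TIA. The groups did not overlap, the log2 difference was 0.27 (95% interval 0.03 to 0.52), and the adjusted limma p was above 0.99. Length weighting left it at 0.31 (0.09 to 0.52), and without CONTROL-VEH 4 the interval of the summed value included 0 (-0.04 to 0.51).

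For the other serotonin receptors among the candidates the groups overlapped. *Htr1a* had 2.34 ± 0.26 FPKM with vehicle and 2.14 ± 0.21 FPKM with TIA (SD, n = 4 each), *Htr2c* 3.03 ± 0.18 and 2.88 ± 0.32 FPKM, and *Htr7* 1.30 ± 0.20 and 1.36 ± 0.20 FPKM. *Htr1b* and *Htr4* were low, at means of 0.801 and 0.281 FPKM with vehicle. The serotonin transporter gene *Slc6a4* was at 0.118–0.222 FPKM with vehicle and 0.198–0.247 FPKM with TIA, below the filter. Of 20 genes of the serotonin system 9 were tested, and *Htr6* was the one with an unadjusted limma p under 0.05 (11.1%, against 3.84% of all genes).

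Transcripts of the drug's receptor were scarce. *Oprm1*, the µ-opioid receptor gene, had 0.119, 0.212, 0.145 and 0.179 FPKM with vehicle and 0.175, 0.136, 0.101 and 0.285 FPKM with TIA, all below the filter of 0.5 FPKM, and the groups overlapped. The δ receptor gene *Oprd1* had means of 0.567 and 0.554 FPKM, and the κ receptor gene *Oprk1* 0.145 and 0.194 FPKM. The nociceptin receptor gene *Oprl1* was the most abundant of the family in FPKM, at 34.3 and 36.3 FPKM, with a log2 difference of 0.07 (-0.24 to 0.37). *Pdyn*, which encodes the dynorphin precursor, was at 8.94 FPKM in CONTROL-TIA 6 and at 1.18–1.73 FPKM in the other 7 cultures.

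For AMPA receptor genes a 2-fold difference lay outside every interval. All 21 subunits and auxiliary proteins were tested, and all 21 intervals lay within 2-fold, against 79.6% of all genes. None had an unadjusted limma p under 0.05, against 3.84% of all genes, a share at which so short a list often holds none. *Gria2*, the subunit that sets calcium permeability, had 153, 158, 150 and 173 FPKM with vehicle and 152, 156, 163 and 165 FPKM with TIA, a log2 difference of 0.01 (-0.15 to 0.16). The scaffold gene *Dlg4*, at a mean of 580 FPKM with vehicle, differed by -0.02 (-0.23 to 0.20). *Gria1* was less certain, with values from 46.3 to 102 FPKM, and its interval ran from -0.73 to 0.61. Of 19 NMDA, kainate and metabotropic receptor genes tested, *Grm7* had an unadjusted limma p of 0.0271, with a log2 difference of 0.74 in summed FPKM and of 0.15 (-0.15 to 0.44) with length weighting.

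Neuronal activity genes were bounded in the same way. All 27 immediate early genes that were tested had an interval within 2-fold, against 79.6% of all genes. None had an unadjusted limma p under 0.05, against 3.84% of all genes. At that share a list of this size often holds none. *Fos* had 1.99, 1.68, 2.35 and 3.89 FPKM with vehicle and 1.92, 2.44, 2.07 and 1.57 FPKM with TIA. *Arc* differed by 0.02 (-0.45 to 0.49) and *Npas4* by 0.01 (-0.30 to 0.31). *Bdnf*, the neurotrophin that many antidepressants have been tested on, was at 2.20 ± 0.65 FPKM with vehicle and 2.14 ± 0.26 FPKM with TIA, a log2 difference of 0.01 (-0.56 to 0.58). Its receptor gene *Ntrk2* had an interval from -0.86 to 0.44, and CONTROL-VEH 4 was its highest culture, at 234 FPKM.

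**Figure D4:**
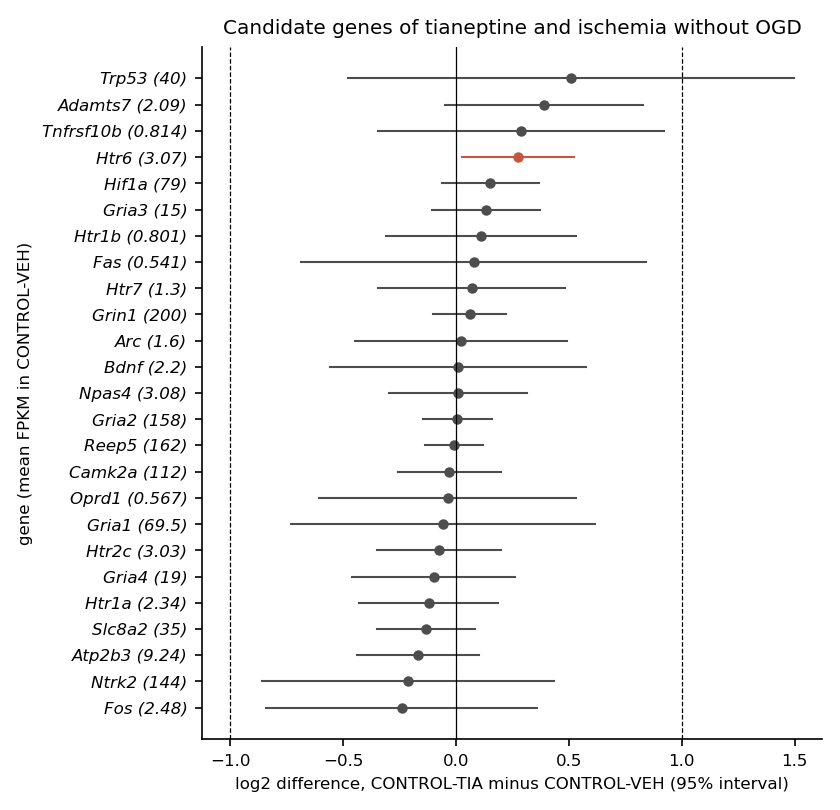
Log2 difference between CONTROL-TIA and CONTROL-VEH (x axis, with 95% limma interval) for the 25 candidate genes that passed the expression filter; mean FPKM in CONTROL-VEH stands beside each name and dashed lines mark 2-fold. Every interval but that of *Htr6* (red) crosses 0, and *Trp53* alone reaches beyond 2-fold.

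For the candidate genes of cell death and hypoxia the groups overlapped. *Hif1a* had 71.6, 82.2, 89.4 and 72.9 FPKM with vehicle and 92.6, 83.8, 81.8 and 91.96 FPKM with TIA, a log2 difference of 0.15 (-0.06 to 0.37). *Trp53* was the least certain candidate: values of 55.9, 19.5, 21.6 and 63.1 FPKM with vehicle and 57.0, 65.3, 31.7 and 52.1 FPKM with TIA gave an interval from -0.48 to 1.50 in summed FPKM and from -0.19 to 0.48 with length weighting. Without CONTROL-VEH 4 its summed interval ran from -0.20 to 1.78. The death receptor genes *Fas* and *Tnfrsf10b* were under 1.4 FPKM in every culture. *Casp8* was at or below 0.318 FPKM, and *Mmp3* was listed at 0 in all 8 cultures.

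Calcium handling genes were evenly divided in direction. Of 40 tested, 20 were above 0, with a median log2 difference of -0.002, and without CONTROL-VEH 4 there were 23, with a median of 0.02. With all 8 cultures, 4 were lower and 0 higher at an unadjusted limma p under 0.05 (10.0%, against 3.84% of all genes). All 40 intervals lay within 2-fold, against 79.6% of all genes. *Calm3*, a calmodulin gene, had 2863, 2810, 3222 and 3303 FPKM with vehicle and 2604, 2679, 2860 and 2566 FPKM with TIA. The groups overlapped, with a log2 difference of -0.19 (-0.33 to -0.04) that stayed at -0.18 with length weighting. The store calcium sensor *Stim1* differed by -0.41 and the T-type channel gene *Cacna1h* by -0.29, the last at -0.02 with length weighting. Without CONTROL-VEH 4 the interval of *Calm3* included 0 (-0.36 to 0.07), while *Camk2a* (-0.03), *Slc8a2* (-0.13) and *Atp2b3* (-0.17) had intervals that included 0 with all 8 cultures.

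Over all 24 pathway lists together, 24 of 597 genes tested (4.02%, against 3.84% of all genes) had an unadjusted limma p under 0.05, 10 higher and 14 lower, and none had an adjusted p under 0.05. Among the lists with 30 or more genes tested, only that of the integrated stress and unfolded protein response had as high a share as the calcium genes, with 3 of 30 higher, *Atf5*, *Psat1* and *Nupr1*. The list as a whole did not lean that way. Of its 30 genes 13 were above 0, with a median log2 difference of -0.015, and without CONTROL-VEH 4 there were 10, with a median of -0.021. The stress-induced gene *Nupr1* had 0.934, 0.731, 0.784 and 0.757 FPKM with vehicle and 1.12, 1.197, 1.06 and 1.56 FPKM with TIA. No p53 target or apoptosis gene of 40, no hypoxia or glycolysis gene of 39, no antioxidant gene of 32, no cholesterol gene of 33 and no cell cycle gene of 32 had an unadjusted p under 0.05. Among the cAMP genes *Crem*, a transcription factor that cAMP itself induces, was at 7.93, 9.51, 10.4 and 4.81 FPKM with vehicle and 15.8, 16.9, 13.3 and 9.57 FPKM with TIA, a log2 difference of 0.78 (0.17 to 1.40), 0.38 with length weighting. Without CONTROL-VEH 4, its lowest vehicle culture, the summed difference of *Crem* was 0.55 (0.06 to 1.05).

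The direction of several lists rested on CONTROL-VEH 4. Of the 40 p53 and apoptosis genes 30 were above 0 (48.5% of all genes were), with a median log2 difference of 0.08, but 22 without that culture, with a median of 0.02. Of 33 cholesterol genes 18 were above 0 with all cultures and 8 without it. Other lists moved too: 10 of 21 AMPA receptor genes were above 0 with it and 16 without it. The counts were 14 and 8 for 23 heat shock genes, and 2 and 10 for 11 interneuron markers. Only 8 of 32 cell cycle genes and 6 of 33 presynaptic genes were above 0, against 17 and 15 without it. The 11 astrocyte and radial glia markers that were tested had a median of -0.21 with it and -0.02 without it. For autophagy and lysosome genes 8 of 35 were above 0 either way, with medians of -0.08 and -0.03.

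Matching by order, CONTROL-TIA 5 with CONTROL-VEH 1 and so on, is not given by the labels. The difference had the same sign in all 4 matched pairs for 911 genes higher (5.63%) and 1086 genes lower (6.72%) with TIA. Without a drug effect, 4 equal signs would arise by chance at a share near these in each direction. *Grtp1* differed by -1.95, -1.82, -2.21 and -2.22 in the pairs, *Myh10* by 0.59, 0.64, 0.58 and 0.93, and *Crem* by 0.98, 0.82, 0.36 and 0.98. *Htr6* was less even, at 0.30, 0.19, 0.05 and 0.56. For *Grtp1*, *Myh10* and *Htr6* the equal sign was given beforehand under any matching, since their groups do not overlap. A fit with the order as a replicate block called no gene at an adjusted limma p of 0.05, and 739 genes had an unadjusted p under 0.05, 336 higher and 403 lower.

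By rank, cultures of the same order shared part of their deviation from the group mean. By Pearson's r the correlations over 16170 genes were weak, at 0.08, 0.02, -0.002 and 0.04 with summed FPKM. With length weighting Pearson's r was 0.09, 0.02, -0.002 and 0.04. Spearman's rho was 0.14, 0.08, 0.09 and 0.11 on summed FPKM. On length-weighted values it was 0.24, 0.17, 0.15 and 0.17, and the other 12 combinations ranged from -0.15 to 0.05. By rank on either measure, each of the 4 vehicle cultures was most like the TIA culture of its own order. Single genes showed it in the whole series. *Ttr*, a choroid plexus gene, was highest in the order-1 culture of each group, at 0.573, 4.35, 3.25 and 1.05 FPKM against 0.443 FPKM or less in the other 12 cultures. *Gfap* was highest in the order-4 culture of each group, at 87.4, 15.1, 85.9 and 64.5 FPKM. These genes and the rank measure were chosen after the data were seen, and the points share the 8 libraries.

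**Figure D5:**
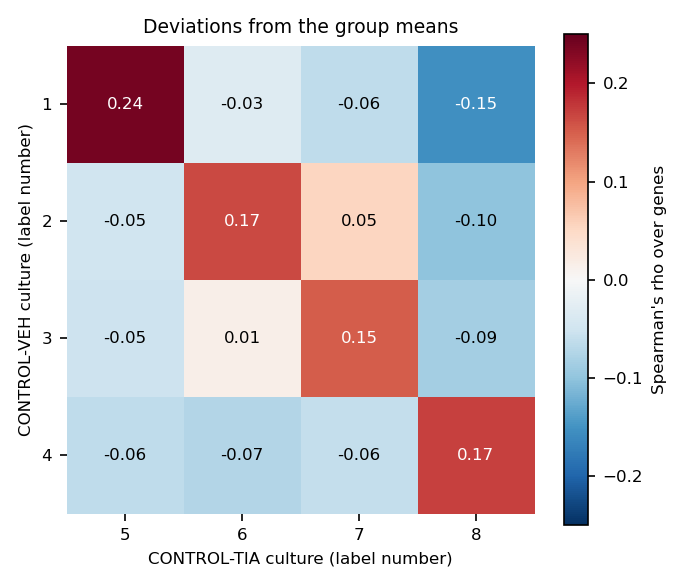
Spearman's rho, over 16163 genes, between the deviation of each CONTROL-VEH culture (rows) and each CONTROL-TIA culture (columns) from its group mean, in length-weighted log2 values. The values on the diagonal run from 0.15 to 0.24 and all others are at or below 0.05.

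The effect of the drug without OGD was set beside its effect after OGD, measured in the other 8 cultures, where 1293 genes (7.91%) had an unadjusted limma p under 0.05. Over 15721 genes tested in both, the log2 differences had a Pearson's r of 0.02 and a Spearman's rho of 0.08 across genes, which are not independent replicates, and 53.7% had the same sign. Of 598 genes with an unadjusted p under 0.05 without OGD, 55.7% had the same sign after OGD. *Grtp1* differed by -0.74 after OGD (unadjusted limma p 0.215), where its means were 17.1 and 12.6 FPKM, and *Htr6* by 0.35 (unadjusted limma p 0.116). *Exosc2* went the other way, at -0.33 (unadjusted limma p 0.0265), as did *Crem*, at -0.43 (unadjusted limma p 0.126). The p-values of these 4 genes come from a fit of the OGD cultures with no filter on low values. The difference between both effects was called in 0 of 16313 genes (0%), and 988 (6.06%) had an unadjusted limma p under 0.05. That count depended on single OGD cultures. It was 2939 without OGD-VEH 9 and 2298 without OGD-TIA 16, with 0 calls each, and array weights gave 101 calls and 4307 genes (26.4%).

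The genes with the smallest p for that difference were *Gm9512*, *Nans* and *Exosc2*. *Gm9512* had 17.0, 18.6, 16.1 and 20.8 FPKM in CONTROL-VEH and 22.3, 33.7, 23.6 and 28.5 FPKM in CONTROL-TIA, with means of 34.6 and 24.4 FPKM in OGD-VEH and OGD-TIA. *Nans*, an enzyme of sialic acid synthesis, had means of 76.3 and 63.8 FPKM without OGD and 40.5 and 66.2 FPKM after it. The adjusted limma p of the difference was 0.722 for all of them.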

How the data were processed

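RNA of the 16 cultures was sequenced as stranded poly(A) libraries with single reads. Per the study's methods and the labels, reads were checked with FastQC and aligned with STAR to GRCm38, isoform levels were estimated with eXpress, and values were scaled by TMM. DESeq2 is named in the labels and its results were not used. The authors deposited FPKM per isoform. The table held 135276 lines, of which 74 named no isoform (at most 0.0594% of a culture's FPKM) and were left out, and 119 symbols stand for more than 1 gene identifier. FPKM of the 135202 isoforms were summed per gene symbol (53679 symbols). Counts were not used here, so depth was estimated from the smallest steps of genes with a single isoform: 1 read on 1 kb was worth 0.0382 to 0.0488 FPKM in the 8 CONTROL cultures. Low genes are therefore measured by few reads.

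CONTROL-TIA was compared with CONTROL-VEH by limma 3.58.1 (R 4.3.3, trend) on log2(FPKM + 0.1), so that differences of low genes are understated. Genes averaging 0.5 FPKM or more in the 8 cultures were tested, with Benjamini-Hochberg adjustment over all of them. A call needed an adjusted p of at most 0.05 and a 2-fold difference. Single genes were also given a two-sided exact permutation test over 70 assignments. The difference of the drug effect with and without OGD was an interaction term over 16 cultures. The fit was tested on simulated data. Length weighting multiplied each isoform's FPKM by its length and divided the sum by a mean isoform length of the gene. That mean was weighted by FPKM over all 16 cultures, those with OGD included. Lengths came from GENCODE, where 99.9% of the isoforms were found.

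Named genes were called genes (there were none), the 8 higher and 8 lower protein-coding genes with the smallest p and the 5 with the largest difference in each direction, at 2 FPKM or more and with no overlap between groups, 32 candidates, and the leading gene of each of 24 pathway and 8 marker lists. The values of 2 of these genes or list members are not reported here. Members, lists and candidates were chosen with earlier results of these data known. Alternatives were other pseudocounts, filters and scalings, array weights, a robust fit, all 16 cultures, single isoforms, a replicate block by order, and leaving out each culture.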

Additional observations from a re-analysis of the deposited data

Results flagged for a closer look

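Of 172 sets of 4 cultures (the named genes in each CONTROL group), 13 (7.56%) held a culture whose gap to the nearest of the others exceeded Dixon's 95% critical value for 4 values. Chance flags about 1 in 20 groups. CONTROL-VEH 4 accounted for 4 of them: *Htr1b* was low there at 0.650 FPKM (median of the other 3 cultures 0.856), *Tnfrsf10b* low at 0.471 (0.900), *Bdnf* low at 1.23 (2.49) and *Pdgfrb*, a pericyte and fibroblast receptor, high at 4.34 (1.08). Among the genes with leading differences, *Aco1* was high in CONTROL-VEH 1 at 56.9 FPKM (35.4), *Aktip* high in CONTROL-TIA 8 at 68.8 (61.5) and *Tspan15* high in CONTROL-TIA 5 at 5.15 (2.88). The deviating culture lay on the side of the other treatment in all 3 of these. *Pdyn* was high in CONTROL-TIA 6 at 8.94 FPKM (1.56) and low in CONTROL-VEH 1 at 1.18 (1.72). *Grm7* was low in CONTROL-TIA 5 at 21.3 FPKM (46.8), *Hspd1* low in CONTROL-TIA 6 at 272 (292), *Fn1* low in CONTROL-TIA 8 at 51.7 (58.8) and *Htr7* low in CONTROL-VEH 2 at 1.0 (1.39). No named gene had an adjusted p under 0.05 for a difference of the drug effect with and without OGD.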

How the results depend on the processing

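No gene was called under any alternative at gene level that kept a filter on low values. With no filter, 4 of 32552 genes were called and 4 had an adjusted p under 0.05, with 1128 at an unadjusted p under 0.05 and 22960 intervals within 2-fold. Isoforms tested one at a time gave 5 calls. Length weighting, added after seeing the data, gave 1 gene at an adjusted p of 0.05 (*Grtp1*, -0.87) and 9 genes of the pathway lists at an unadjusted p under 0.05 in place of 24, and the fit of all 16 cultures gave 6. Leaving out each culture gave 0 calls, 0 to 1 genes at an adjusted p of 0.05 (*Eapp*, at -0.94, adjusted p 0.0238 without CONTROL-VEH 4), 506 to 748 at an unadjusted p under 0.05, 12292 to 12948 intervals within 2-fold and 8 to 25 genes of the lists (8 without CONTROL-TIA 8 and 14 without CONTROL-TIA 6). All 16 leading genes kept their direction each time, which was given beforehand, since their groups do not overlap. For the difference of the drug effect with and without OGD, array weights gave 101 calls and 4307 genes at an unadjusted p under 0.05, and leaving out each of 16 cultures gave 0 to 1 calls (1 without CONTROL-VEH 3) and 678 to 2939 genes (2939 without OGD-VEH 9, 2298 without OGD-TIA 16). The causes were not tested. The replicate block by order moved the 621 genes to 739 and called 0, and 604 with length weighting, with 0 at an adjusted p of 0.05. Whether the order pairs the cultures depended on the measure: no same-order correlation exceeded 0.1 by Pearson's r, while all 4 did by rank on length-weighted values. By rank on summed FPKM they were 0.14, 0.08, 0.09 and 0.11. The labels give no pairing. Of 414 values of 23 leading genes under the alternatives, 413 kept direction and side of the threshold, and *Grtp1* passed it with length weighting. Non-overlapping groups were a condition for choosing these genes, so their direction was largely given beforehand. The smallest adjusted limma p among them was 0.201 in the main fit, so few could change side. Depth limits genes under 2 FPKM, where intervals were widest.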
